A study of Drosophila melanogaster with 3 samples.

Results

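Small nuclear RNA (snRNA) genes are the 32 genes of the fly annotation with the biotype snRNA, out of 17947 genes in all. They were chosen by that biotype, not by any binding value, and they lie at 26 loci when gene starts within 1000 bp of each other are joined. The set holds 5 genes for U1, 6 for U2, 3 for U4, 7 for U5, 3 for U6 and 2 for 7SK. U7, U11, U12, U4atac, U6atac and LU have 1 gene each. Arm 2L carries 16 of them, 3R carries 10, 3L carries 4 and the X chromosome 2.

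Binding was mapped by chromatin immunoprecipitation with sequencing (ChIP-seq) in a single group of 3 biological replicates, with no other condition. The animals were whole Drosophila melanogaster larvae in the third instar at the wandering stage, with males and females pooled and the age given as unknown. The strain, named fru-MiMIC-GFP, carries an eGFP exon inside an intron of fru, so transcripts of the endogenous gene that include this exon can make a Fru-GFP fusion protein. An anti-GFP antibody recovered the chromatin. Fru proteins are BTB zinc-finger transcription factors best known from the nervous system that controls male courtship. Since whole larvae were used, strong binding in few cells and weak binding in many cannot be told apart, and the lists hold no expression values against which the stage or tissue could be checked. A control experiment named in the labels was not analysed here.

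Most snRNAs are the RNA parts of the spliceosome, the machine that cuts introns out of messenger RNA. U1 pairs with the start of an intron, U2 with its branch point, and U4, U5 and U6 join as a preformed particle; U11, U12, U4atac and U6atac do the same work in the minor spliceosome, with U5 shared between both. U7 guides the cleavage that forms the 3′ ends of histone messenger RNAs, and 7SK holds the elongation kinase P-TEFb in an inactive particle. RNA polymerase II transcribes most of these genes, whereas U6, U6atac and 7SK are made by RNA polymerase III. In flies both kinds of promoter carry the proximal sequence element A (PSEA), a short element upstream of the start that is bound by the factor SNAPc.

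The following sequences show the stretch in which that element is known to lie, in all 8 snRNA genes with a summit of tagged Fru in the authors' thresholded list. After them stand 3 genes without one, chosen because they are a U1 gene with the same RNA, a U6 gene and the other 7SK gene. Each is 100 bases of the dm6 assembly (RefSeq, Release 6), read 5′ to 3′ on the gene's strand, with 80 bases before the annotated gene start and 20 after it. Capitals mark the match to TTCNCAA, where N is any base.
7SKa, chr3R:7474977-7475076, minus strand: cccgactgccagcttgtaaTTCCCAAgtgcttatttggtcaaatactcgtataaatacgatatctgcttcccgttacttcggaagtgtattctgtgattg
U4:39B, chr2L:21215159-21215258, minus strand: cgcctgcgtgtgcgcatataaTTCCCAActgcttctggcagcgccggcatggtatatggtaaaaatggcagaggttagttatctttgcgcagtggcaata
U1:95Ca, chr3R:23859611-23859710, minus strand: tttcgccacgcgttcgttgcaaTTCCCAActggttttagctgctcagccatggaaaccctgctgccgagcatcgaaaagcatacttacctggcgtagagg
U2:34ABb, chr2L:13215759-13215858, plus strand: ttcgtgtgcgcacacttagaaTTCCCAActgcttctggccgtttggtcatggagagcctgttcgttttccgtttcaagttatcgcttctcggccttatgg
U5:63BC, chr3L:3090721-3090820, plus strand: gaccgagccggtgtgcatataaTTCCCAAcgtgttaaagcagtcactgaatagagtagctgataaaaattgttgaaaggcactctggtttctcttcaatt
U7, chr3L:3593743-3593842, plus strand: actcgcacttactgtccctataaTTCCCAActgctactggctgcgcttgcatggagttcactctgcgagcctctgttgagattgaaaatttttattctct
LU, chr2L:3046685-3046784, plus strand: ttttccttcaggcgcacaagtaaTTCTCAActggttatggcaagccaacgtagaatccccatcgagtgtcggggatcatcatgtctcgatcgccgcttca
U12, chr3L:16653689-16653788, plus strand: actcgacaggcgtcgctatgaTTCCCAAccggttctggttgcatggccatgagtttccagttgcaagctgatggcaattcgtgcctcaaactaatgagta
U1:95Cb, chr3R:23827790-23827889, plus strand: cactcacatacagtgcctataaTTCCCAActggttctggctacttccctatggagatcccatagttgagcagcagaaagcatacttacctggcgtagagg
U6:96Ac, chr3R:24557135-24557234, plus strand: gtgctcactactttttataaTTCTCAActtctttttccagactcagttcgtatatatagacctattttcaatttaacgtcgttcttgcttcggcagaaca
7SKb, chr3R:23432789-23432888, plus strand: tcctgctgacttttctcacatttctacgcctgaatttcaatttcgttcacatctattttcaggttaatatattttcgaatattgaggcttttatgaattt

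The capitals start between 64 and 55 bases upstream over the 31 snRNA genes with a match (median start at -58). A match was sought only 75 to 35 bases upstream on the gene's strand, so its position was confined to that stretch beforehand. Among the sequences printed, 7SKb has none, and it is the only one of the 32 genes without a match. The exact words ATTCCCA and TTCCCAA tied as the most frequent 7-letter words 75 to 35 bases upstream on the gene's strand, with 26 of 32 snRNA genes (81.3%) each, against 0.468% and 0.446% of all genes. The looser TTCNCAA occurred in 31 of 32 snRNA genes (96.9%) and in 1.38% of all genes. These words were picked from the same snRNA genes, so a higher share than over all genes was built into the choice. TTCCCAA stood upstream of 7 of the 8 snRNA genes with a thresholded summit and of 19 of the 24 without one, so the word did not separate these groups. Of the 9 thresholded summits at snRNA genes, 4 had TTCCCAA on either strand within 100 bp, against 3.56% of all 8996 thresholded summits and 3.20% of the 21004 other pooled summits. The word was chosen for its frequency just upstream of these same genes, so summits near their starts had to hold it more often, and nothing is read from that difference.

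A region in the deposited lists has a summit, the position of its highest signal, and a signal value, which is the authors' own score and has no unit. The authors' thresholded list, made from all 3 replicates, holds 8996 regions with signal values between 104.5 and 15085 (median 201.4). A summit counted as at a gene when it lay within 500 bp of the annotated gene start, and its place is its rank by signal value within its own list. The pooled list and each replicate list hold 30000 regions that the authors call peaks and background, so a region there that is weaker than the thresholded ones is not a called peak. Depth is unknown, because the lists hold no read counts.

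Of the 32 snRNA genes, 8 had a thresholded summit of tagged Fru within 500 bp of the start (25.0%, 95% Wilson interval 13.3 to 42.1%), against 19.6% of all 17947 genes. The interval covers the sampling of genes only and treats them as independent, although they lie at 26 loci. It contains the share of all genes, so the share of snRNA genes alone was not distinguishable from that share at this number. Protein-coding genes had one at 22.2%, transfer RNA (tRNA) genes at 11.7% (34 of 290) and small nucleolar RNA genes at 5.58% (15 of 269). A pooled region of any strength lay at 14 of the 32 snRNA genes (43.8%), against 35.5% of all genes and 46.2% of tRNA genes.

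Many gene starts lie beside a protein-coding promoter, so snRNA genes were also counted by their distance to the nearest protein-coding transcription start site (TSS). Among the 29 snRNA genes over 500 bp from any such site, 7 had a thresholded summit (24.1%, interval 12.2 to 42.1%). The share was 8.67% over the 3368 noncoding genes at that distance, 10.1% over tRNA genes (26 of 258) and 4.17% over small nucleolar RNA genes (10 of 240). By distance class, a summit was found at 1 of 3 snRNA genes within 500 bp of a protein-coding start, none of 2 from there up to 1000 bp, 1 of 7 from there up to 2000 bp and 6 of 20 beyond 2000 bp. The median distance to a protein-coding start was 4626.5 bp for the 8 snRNA genes with a summit and 3072.5 bp for the 24 without. Of the snRNA genes inside a longer gene, 4 of 17 had a summit, and of those outside, 4 of 15.

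At shorter distances the share of snRNA genes dropped less than the shares of other genes. Within 100 bp of the start, a distance added after the values were seen, a thresholded summit lay at 6 of 32 snRNA genes (18.8%), against 7.04% of all genes and 1.72% of tRNA genes. Over 500 bp from a protein-coding start the count was still 6 of 29 (20.7%), against 2.02% of noncoding genes. At 7SKa the summit counted was the weaker of its pair, 74 bp upstream at place 2903 and present in 2 replicates. Its stronger summit, at place 380, lay 132 bp downstream. At U1:95Ca the thresholded summit lay 17 bp downstream, but the strongest region lay 154 and 148 bp downstream in replicates 1 and 3. Within 1000 bp the shares were 28.1% of snRNA genes, 24.8% of all genes, 21.7% of tRNA genes and 16.5% of those noncoding genes.

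**Figure D1:**
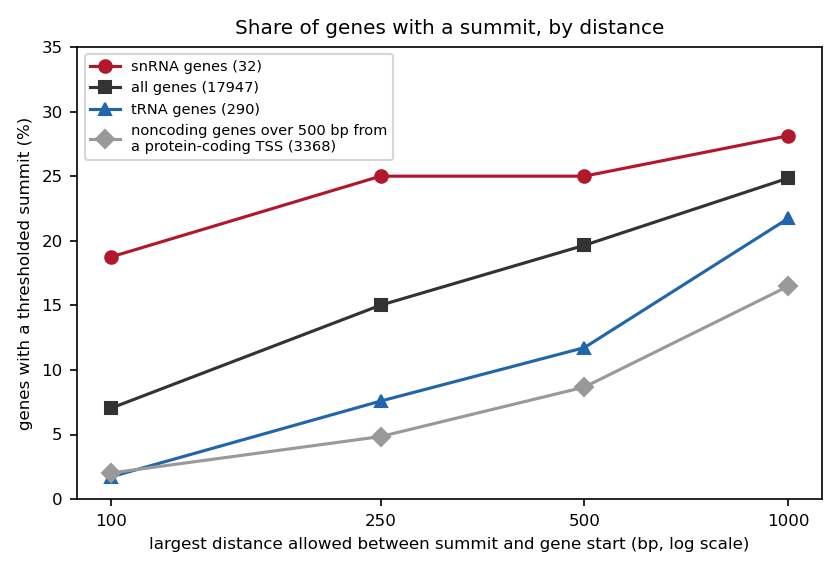
Share of genes with a thresholded summit (vertical axis, percent) against the largest distance allowed between summit and gene start (horizontal axis, bp, log scale), for snRNA genes, all genes, tRNA genes and noncoding genes over 500 bp from a protein-coding TSS; points are counts over the whole list, with no error bars. The share of snRNA genes is 18.8% at 100 bp and 28.1% at 1000 bp, while that of all genes is 7.04% at 100 bp and 24.8% at 1000 bp.

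The strongest summit lay at 7SKa (FBgn0065099; chr3R:7474553-7474996, minus strand, outside other genes), which encodes 7SK. It carried a pair of thresholded summits in the same region (chr3R:7474569-7475103). The first lay inside the gene at 7474864, 132 bp downstream of the start, with a signal value of 964 at place 380. The second lay at 7475070, 74 bp upstream, with a signal value of 283 at place 2903. In replicates 1, 2 and 3 the strongest region at the gene had signal values of 202, 349 and 408, at places 652, 257 and 467 of each list. All 3 replicates thus put it among their strongest few percent of regions. The upstream summit was uneven, at places 25972, 1006 and 8722, so in replicate 1 it was outside the 8996 strongest regions.

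U4:39B (FBgn0003930; chr2L:21215036-21215178, minus strand), 1 of 3 genes for the U4 RNA that keeps U6 inactive until the spliceosome is assembled, lies in an intron of Atg18b. Its thresholded summit was at 21215230, 52 bp upstream of the start, with a signal value of 626 at place 877. Signal values were 141, 248 and 258 in replicates 1, 2 and 3, at places 1156, 500 and 1083. The strongest summit lay 4 and 7 bp downstream of the start in replicates 1 and 3, and 76 bp upstream in replicate 2. Replicates 1 and 3 each held a weaker region as well, 196 and 206 bp upstream at places 11187 and 9230. The nearest protein-coding start, that of CG8679, was 3314 bp from the summit.

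U1:95Ca (FBgn0004185; chr3R:23859467-23859630, minus strand), 1 of 5 genes for U1, is intergenic and 30422 bp from the nearest protein-coding start, that of Pli. Its thresholded summit was at 23859613, 17 bp downstream of the gene start, with a signal value of 333 at place 2295. The strongest region had signal values of 87.2, 109 and 136 in replicates 1, 2 and 3, at places 2340, 2053 and 2759. Replicate 2 had a single summit at the thresholded position, whereas replicates 1 and 3 each had a pair, 154 bp downstream and 47 bp upstream in replicate 1, and 148 bp downstream and 54 bp upstream in replicate 3. Neighbouring summits at snRNA genes were 200 to 218 bp apart in the lists, and no list held summits closer than 199 bp anywhere, so the spacing of such pairs lies at the smallest the lists contain.

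U2:34ABb (FBgn0004192; chr2L:13215839-13216030, plus strand), 1 of 6 genes for U2, is the member with a summit that lies closest to a protein-coding gene, 489 bp from the start of kek4. Its thresholded summit was at 13216035, just past the 3′ end of the gene and 196 bp from its start, on the side away from kek4, whose start was 685 bp from the summit. The signal value was 290 at place 2812. In replicates 1, 2 and 3 the signal values were 66.3, 85.8 and 131, at places 3367, 2954 and 2927, and the summits lay within a few bases of each other, 190, 197 and 196 bp downstream. Among the thresholded summits counted at snRNA genes, it was the farthest from its gene start.

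U5:63BC (FBgn0003938; chr3L:3090801-3090923, plus strand), 1 of 7 genes for the U5 RNA that holds the exon ends together, is intergenic and 8823 bp from the nearest protein-coding start. Its thresholded summit was inside the gene at 3090877, 76 bp downstream, with a signal value of 236 at place 3700. Signal values were 46.6, 73.2 and 110 in replicates 1, 2 and 3, at places 5096, 3752 and 3662. The strongest summit lay 86, 77 and 76 bp downstream in replicates 1, 2 and 3. Each replicate also held a weaker region 286, 282 and 279 bp downstream, at places 12367, 24061 and 16457, and the pooled list had one 286 bp downstream at place 12955, below the threshold.

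U7 (FBgn0053504; chr3L:3593823-3593893, plus strand) has a gene of only 71 bases in an intron of Eip63E, 18369 bp from the nearest protein-coding start. Its thresholded summit lay inside it at 3593865, 42 bp downstream, with a signal value of 185 at place 4960. The replicates gave 38.3, 62.4 and 71.1 at places 6332, 4646 and 6212, and replicate 1 had a further weak region 204 bp downstream at place 24072. LU (FBgn0263847; chr2L:3046765-3046880, plus strand), in an intron of FASN2, had its summit at 3046815, 50 bp downstream, with a signal value of 156 at place 6001. Its replicate signal values were 34.2, 44.1 and 74.4, at places 7095, 7192 and 5929. Both genes were among the 8996 strongest regions of each replicate, in the weaker part of that range.

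U12 (FBgn0041721; chr3L:16653769-16654006, plus strand), the U2 counterpart of the minor spliceosome, lies in an intron of Baldspot and had the weakest thresholded summit of the members. The summit was at 16653872, 103 bp downstream and inside the gene, with a signal value of 119 at place 7908. Signal values were 30.4, 36.7 and 48.5 in replicates 1, 2 and 3, at places 7968, 8799 and 9236. Replicate 3 thus fell just outside its 8996 strongest regions, and the summit was supported by 2 of 3 replicates.

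**Figure D2:**
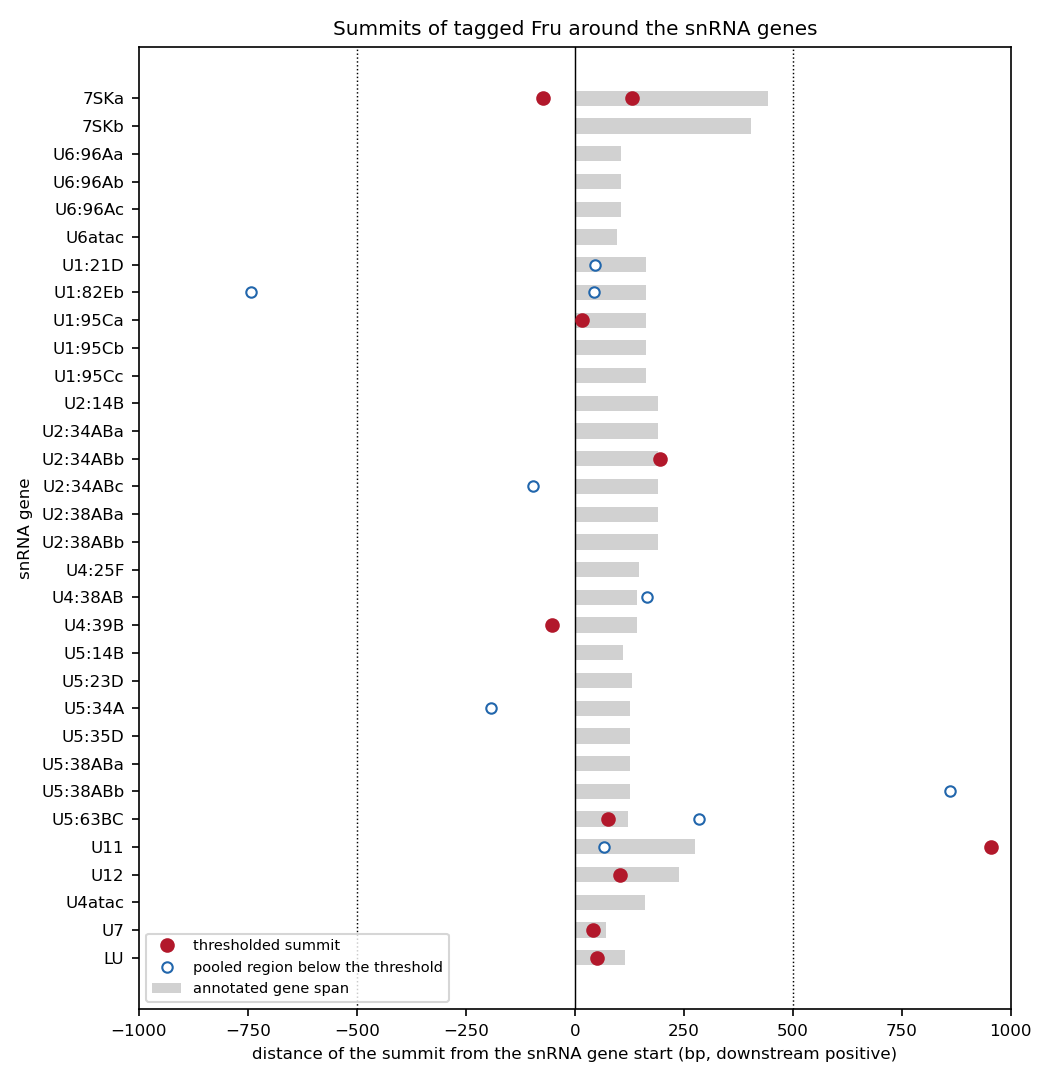
Positions of summits in the thresholded list (filled red circles) and of weaker pooled regions (open blue circles) around each of the 32 snRNA genes, 1 row per gene; the horizontal axis is the distance from the gene start in bp, downstream positive, grey bars are the annotated genes and dotted lines mark 500 bp. Thresholded summits within the dotted lines lie between 74 bp upstream and 196 bp downstream, and 6 of the 9 fall inside the gene.

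The summits at the 8 snRNA genes lay nearer to the gene start, and more often downstream of it, than the median over genes with a summit; with so few genes this is a description, and no test was made. The nearest thresholded summit had a median position of 46 bp downstream over the 8 snRNA genes (range -74 to 196), against 102 bp upstream over the 3526 genes with a summit and 84 bp upstream over 34 tRNA genes. It was downstream at 6 of 8 snRNA genes (75%), against 25.8% of all genes with a summit and 41.2% of tRNA genes. It was within 100 bp of the start at 6 of 8 snRNA genes (75%), against 35.8% of all genes with a summit and 14.7% of tRNA genes. At 7SKa the nearest summit was the weaker of its pair, and the stronger one lay 132 bp downstream. The snRNA genes are 71 to 444 bases long and the sonicated fragments measured 200 to 800 bp, which limits how finely a position can be read. In strength the summits were near the middle of those at genes: the median place of the strongest summit was 3256 for snRNA genes and 3598.5 for all genes with a summit.

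Of the 9 thresholded summits at snRNA genes, 7 were present within 100 bp among the 8996 strongest regions of all 3 replicates, and 2 in 2 replicates. Over the whole thresholded list, 5215 of 8996 summits (58.0%) were present in all 3. Taking the 8996 strongest regions of each replicate directly, 9, 10 and 10 snRNA genes had a summit in replicates 1, 2 and 3. The share was 30.2% ± 1.80 against 20.3% ± 1.37 of all genes (SD, n = 3 replicates). By locus, 9 of 26 had one in each replicate. In replicates 2 and 3, 2 U6 genes were counted through 1 shared region. In replicate 1, a U5 gene was counted through a region 139 bp from the start of the protein-coding gene ND-B17. The SD covers the spread between replicates, not the sampling of genes. In the whole replicate lists of 30000 regions, 12, 17 and 16 snRNA genes had one, 46.9% ± 8.27 against 37.7% ± 2.47 of all genes (SD, n = 3 replicates). The shares of snRNA genes varied between replicates more than those of all genes, and they rest on far fewer genes.

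**Figure D3:**
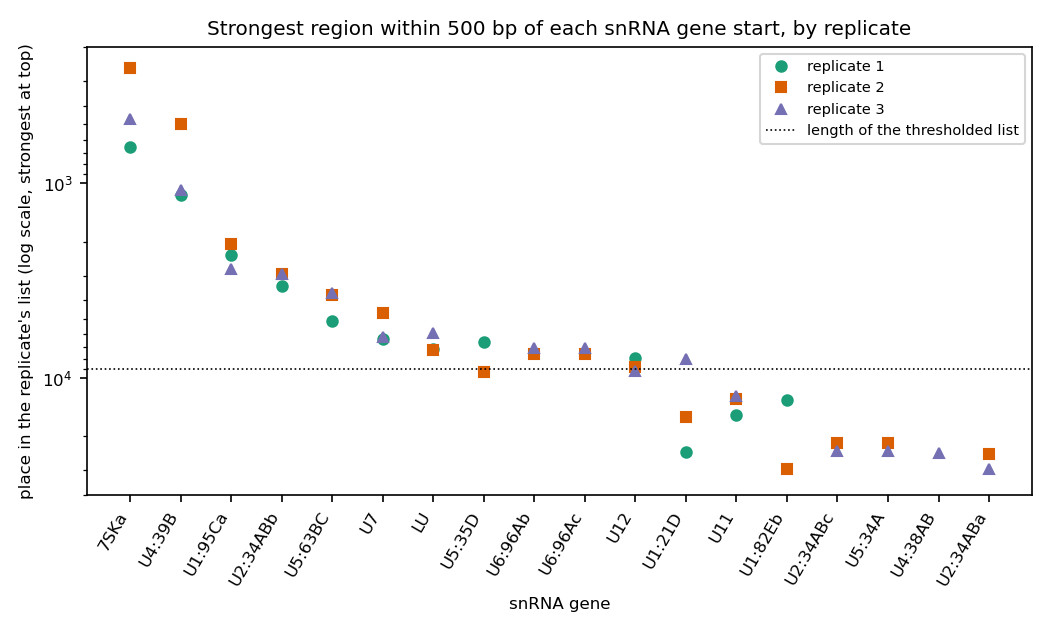
Place of the strongest region within 500 bp of each snRNA gene in the list of each replicate (vertical axis, log scale, strongest at the top; 30000 regions per list), for the 18 genes with a region in at least 1 replicate; circles, squares and triangles are replicates 1, 2 and 3 and the dotted line marks 8996. 7SKa lies at places 652, 257 and 467, and U12 at 7968, 8799 and 9236 straddles the line.

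Below the threshold, 6 snRNA genes had a pooled region only. U1:21D was nearest to the threshold, at place 9678 with a signal value of 96.8 and its summit 47 bp downstream of the start, against the thresholded list's lowest value of 104.5. Its replicates were uneven, at places 24216, 16030 and 8057 in replicates 1, 2 and 3. U11, the U1 counterpart of the minor spliceosome, had a region 67 bp downstream at place 12470, and its replicates stood at places 15585, 12896 and 12385. A thresholded summit 954 bp downstream of U11, at place 4885, lies 198 bp from the start of its host gene Fie and was not counted. U1:82Eb was at place 19035, with places 13115 and 29469 in replicates 1 and 2 and no region in replicate 3. U4:38AB was at place 29297, with a region in replicate 3 only. U2:34ABc and U5:34A, which face away from each other, shared 1 region at place 23636, and neither had a region in replicate 1.

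The remaining 18 snRNA genes had no pooled region within 500 bp, and 14 of them had none in any of the 4 long lists. These 14 include U4atac and U6atac of the minor spliceosome, U4:25F, 7SKb, U6:96Aa and 2 of the U1 genes, U1:95Cb and U1:95Cc. Of the other 4, U6:96Ab and U6:96Ac shared a region in replicates 2 and 3, with the summit 124 and 116 bp upstream of U6:96Ac at places 7601 and 7073, and no region in replicate 1 or in the pooled list. U5:35D had a region in replicates 1 and 2 at places 6574 and 9355, with summits 139 and 133 bp from the start of the protein-coding gene ND-B17. U2:34ABa had weak regions in replicates 2 and 3, at places 24600 and 29374.

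By type, a thresholded summit lay at 1 of 5 U1 genes, 1 of 6 U2 genes, 1 of 3 U4 genes, 1 of 7 U5 genes and none of 3 U6 genes. It lay at 1 of 2 7SK genes and at U7, U12 and LU, but not at U11, U4atac or U6atac. Thus each of the multicopy types transcribed by RNA polymerase II had a single gene with a thresholded summit. By polymerase, the counts were 1 of 6 for RNA polymerase III, which was 7SKa, and 7 of 26 for RNA polymerase II. The polymerase was assigned from background knowledge, not from the annotation, and LU was placed with RNA polymerase II by default. These counts are too small to set types apart.

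Genes of the same type can carry nearly the same RNA and differ upstream. The RNAs of U1:95Ca, U1:95Cb and U1:21D are 100% identical, yet U1:95Ca had a thresholded summit, U1:21D a weaker pooled region and U1:95Cb none in any list. Their 250 bases upstream were 54.4 to 59.6% identical between genes. U2:34ABb and U2:34ABc are also 100% identical in RNA and 58.7% identical upstream, and they stood at places 2812 and 23636. The 3 U6 RNAs are identical as well. 7SKa and 7SKb, in contrast, were 48.9% identical over the RNA, little different from their upstream sequences at 48.8%.

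Repeated sequence bears on these values, because a short read from identical copies has no single origin, and how the authors treated such reads is not given in the sources used here. In a window of 250 bp on each side of the gene start, the share of 36-base words found only once in the genome had a median of 94.2% (61.7 to 100%) for the 8 snRNA genes with a thresholded summit. It was 86.7% (57.4 to 100%) for the 6 with a pooled region only and 84.6% (42.2 to 100%) for the 18 with neither. With 50-base words the medians were 95.6%, 90.8% and 87.3%. Uniqueness thus moved with the presence of a region, and its part in the result was not tested.

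The order did not hold gene by gene. U1:95Ca with a summit had 69.5% unique words, U1:95Cb without any region 67.7% and U1:95Cc 75.3%. U2:34ABb had 61.7%, between 42.2 and 66.7% for the other U2 genes. U4:39B and U4:38AB had the same 88.4% and stood at places 877 and 29297. Genes with a fully unique window included 7SKa, U7, U12 and LU with a thresholded summit, and 7SKb, U4:25F, U4atac and U6atac without any region.

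**Figure D4:**
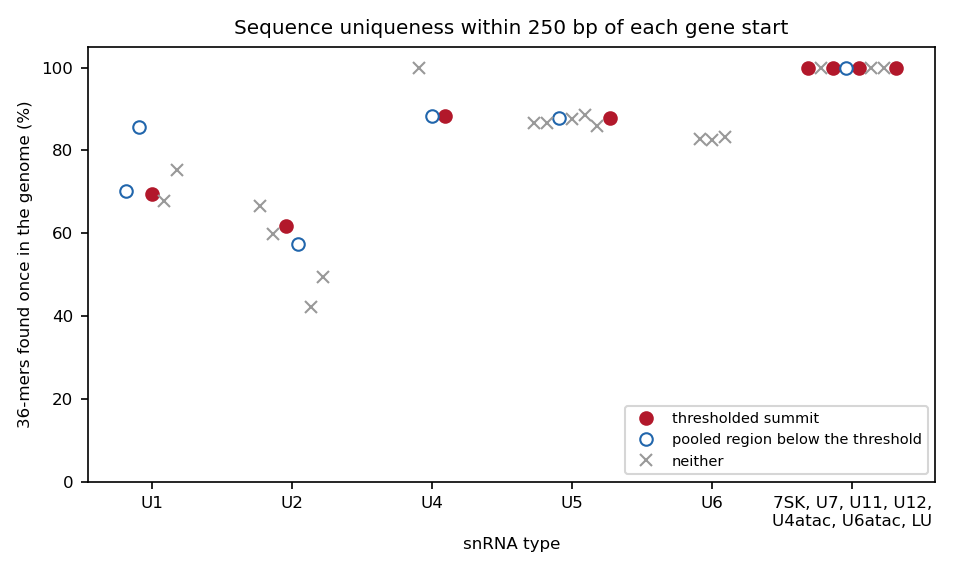
Share of 36-base words within 250 bp of the gene start that occur once in the genome (vertical axis, percent), by snRNA type, 1 point per gene; filled red circles have a thresholded summit, open blue circles a weaker pooled region and grey crosses neither. U2 genes lie between 42.2 and 66.7%, and every gene of the types in the last column is at 100%.

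The other promoter words searched were close to or below their share over all genes. In the 300 bases from 250 before to 50 after the start, TATAAA on either strand occurred in 15 of 32 snRNA genes (46.9%) and in 43.8% of all genes. It was present at 3 of the 8 snRNA genes with a summit and at 12 of the 24 others. GAGAG, the core of the GAGA factor's site, occurred in 9 of 32 (28.1%) and in 29.6% of all genes; it was present at 4 of the 8 snRNA genes with a summit and at 5 of the 24 others. TATCGAT, the core of the DNA replication-related element, occurred at 1 snRNA gene, 7SKa, and in 15.2% of all genes. None of these matches shows that a factor binds there.

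A separate list of 59 protein-coding genes was drawn up around factors that make, process or bind snRNAs, with some related genes such as LSm1 and Slbp. A thresholded summit lay within 500 bp of a TSS at 18 of them (30.5%), against 24.6% of all 13968 protein-coding genes. Among the promoter factors SNAPc and TFIIIB, 3 of 6 genes had one. These were Bdp1 and Brf, subunits of TFIIIB, at places 170 and 425, and the SNAPc subunit Pbp45 at place 6480. The summits of Bdp1 and Brf were present in all 3 replicates, and that of Pbp45 in 2. In Integrator, the complex that cleaves the 3′ ends of nascent snRNAs, 5 of 14 had one, with IntS6 at place 785 and IntS11, the cleaving subunit, at place 801. Of the elongation factors and 7SK particle proteins, 1 of 10 had one, bin3, the fly relative of the enzyme that caps 7SK, at place 371.

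The shares also differed between the remaining subgroups. Of the Sm ring genes, which encode the proteins wrapped around most snRNAs, 1 of 6 had a summit, SmD3 at place 3658, and of the LSm genes 0 of 6. In assembly and export, 2 of 8 had one, Smn, which loads the Sm ring, at place 2457 and Snup, the import adaptor, at place 7092. The summit of Smn was present in all 3 replicates, and that of Snup in only 1. In a mixed group of particle proteins, which also holds snf and Slbp, 6 of 9 had one. It was led by snRNP-U1-70K and snRNP-U1-C of the U1 particle at places 3098 and 4175, each present in all 3 replicates. The summits of U4-U6-60K and U2A, at places 5441 and 8427, were each present in only 1 replicate. The subgroups are small, and their shares were not compared by a test.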

How the data were processed

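Regions with summits and signal values were deposited by the authors for 3 biological replicates, for their pooled reads and as a thresholded list. The signal value is a score made by the authors from ChIP and control alignments, per the notes deposited beside each sample. The peak caller, aligner, settings, read length and threshold were not given in the sources used here. Lists on dm3 were not used. Genes and biotypes came from Ensembl release 115, without pseudogenes and transposable elements, and sequence from the RefSeq Release 6 genome, which is dm6. Positions are 1-based. Counts, medians, words and word uniqueness were computed with Python 3.11.15 and NumPy 2.4.6, pairwise identity with Biopython 1.88, Wilson intervals with SciPy 1.17.1, and figures with matplotlib 3.10.9. The scripts were tested on simulated data. With 1 group, no test between groups was made.

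Every snRNA gene with a thresholded summit or a pooled region only is named, the rest by type; of the protein-coding list, the strongest 2 per subgroup are named, and Pbp45 was added after its value was seen because only 3 genes of its subgroup had a summit. Genes at the edges of the counts were also named after their values were seen. The members and lists were chosen with earlier results of these data known. The distance of 100 bp and the word TTCNCAA were added after seeing the data. Of 67 protein-coding symbols listed, SmG, LSm2, LSm5, LSm6 and LSm8 matched no single gene and were left out, and asun, omd and rig were each listed under a second name as well, which left 59 genes. Alternatives were other distances, region overlap, the strongest 4498 thresholded regions, replicate support, each replicate list and wider loci.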

Additional observations from a re-analysis of the deposited data

How the results depend on the processing

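With only the strongest 4498 thresholded regions, 5 snRNA genes at 5 loci had a summit, against 8 genes at 8 loci with the whole list. Of the snRNA genes over 500 bp from a protein-coding start, 4 had one, against 7. No other alternative run moved a count by more than 1.5 times. Requiring support from the remaining pair of replicates, leaving each replicate out in turn, gave 7 to 8 snRNA genes, 7 to 8 loci, 6 to 7 genes far from a protein-coding start and 13 to 15 of the 18 protein-coding genes; over all alternatives the protein-coding count was 12 to 20. Within 1000 bp the counts were 9 snRNA genes, 9 loci and 8 genes far from a protein-coding start. Within 100 bp, chosen after seeing the data, each of these counts was 6. The single replicate lists gave 9 to 10 snRNA genes among their strongest regions, at 9 loci in each list. With a region of any strength they gave 12 to 17 genes, against 14 in the pooled list. No paired analysis was possible because all samples form 1 group. With 32 genes at 26 loci, neighbouring genes that share a region, unknown depth and repeated sequence at U1, U2, U4, U5 and U6 genes, these counts describe the deposited lists and small differences between types cannot be read from them.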

Other observations

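Other noncoding RNA genes, including the long noncoding RNAs roX1 and roX2, were looked at after the snRNA values were seen, and are given as values. RNaseMRP:RNA, the RNA of a ribosomal RNA processing enzyme, had a thresholded summit 286 bp downstream of its start at place 7734, present in 2 replicates, and the word TTCCCAA upstream. The U3 small nucleolar RNA gene snoRNA:U3:54Aa had a thresholded summit 397 bp downstream at place 7129, also in 2 replicates. Its relatives snoRNA:U3:54Ab and snoRNA:U3:9B had pooled regions only, at places 9800 and 10153, and TTCCCAA stood upstream of snoRNA:U3:9B. The dosage compensation RNAs roX1 and roX2 had pooled regions at places 9686 and 21575, with summits 74 bp downstream and 64 bp upstream of the start. Neither 7SL RNA gene, nor RNaseP:RNA, had a region within 500 bp in the pooled list.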
